A study of Mus musculus with 2 samples.

Results

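Non-classical-like monocytes made up 124 of the 9415 cell barcodes kept from single-cell RNA sequencing of mouse blood, 54 of 4190 in the Mvk mutant library and 70 of 5225 in the wildtype library. They were chosen per barcode from raw counts of UMIs (unique molecular identifiers, 1 per captured RNA molecule). A barcode entered a monocyte gate when Lyz2, Csf1r, Lst1, Ifitm3 and Cst3 summed to at least 8 UMIs, with at most 1 UMI of the T cell genes Cd3d, Cd3e and Cd3g, at most 2 of the B cell genes Cd79a, Cd79b and Ms4a1 and at most 1 of Siglech. Within this gate of 211 barcodes, a cell was non-classical-like when Ace, Treml4, Ear2, Eno3, Fcgr4 and Cd300ld together had more UMIs than Ly6c2, Ccr2, Chil3, F13a1, Vcan and Fn1. A cell with the opposite order was classical-like, which held for 71 barcodes (46 mutant, 25 wildtype). The other 16 (11 mutant, 5 wildtype) had equal sums, and 10 mutant and 2 wildtype ones had no UMI of either set.

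The series compared peripheral blood mononuclear cells of mice with impaired mevalonate kinase, a step of the pathway that makes sterols and isoprenoids, with those of controls. Mutant animals had 1 V377I allele and 1 del91 deletion allele of Mvk, and the controls were wildtype (Mvk+/+). All were 10-week-old female C57Bl/6 mice, and blood of 3 mice per genotype was pooled into 1 library, so genotype cannot be told apart from the pool and the library. After a Ficoll gradient and lysis of red cells, DAPI-negative and Ter119-negative cells were sorted. The libraries held 14513059 UMIs (mutant) and 15385199 UMIs (wildtype), and 28 barcodes were kept in both, none of them non-classical-like. With 1 library per genotype there was no test. All intervals are exact 95% intervals that cover counting error only.

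Non-classical monocytes of the mouse are the Ly6C-low blood monocytes that patrol the inner wall of small vessels. They derive largely from classical, Ly6C-high monocytes in the circulation, and the orphan nuclear receptor Nr4a1 is needed for their development and survival. They are known for Fc receptor IV, the fractalkine receptor Cx3cr1 and the integrin LFA-1, whereas classical monocytes carry Ccr2 and enter inflamed tissue.

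Promoter sequences are shown for genes that chose the non-classical-like cells and for a gene outside the rule, so that their start regions can be set side by side. They were read from RefSeq on GRCm38.p6, 5′ to 3′ on the gene's strand, as the 150 bases before the start site. Capitals mark matches on either strand to the ETS core motif AGGAAGT, bound by factors such as PU.1 (Spi1), or to the C/EBP motif TTGCNNAA, where N is any base. Fcgr4 (chr1:171018776-171018925, plus strand), Cd300ld (chr11:114989887-114990036, minus strand) and Ear2 (chr14:44102504-44102653, plus strand) were used by the rule. Cd300e (chr11:115062040-115062189, minus strand) was not, and headed the genes outside the rule.
Fcgr4: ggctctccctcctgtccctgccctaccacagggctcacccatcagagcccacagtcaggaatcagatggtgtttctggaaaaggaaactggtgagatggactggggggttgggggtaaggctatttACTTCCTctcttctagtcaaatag
Cd300ld: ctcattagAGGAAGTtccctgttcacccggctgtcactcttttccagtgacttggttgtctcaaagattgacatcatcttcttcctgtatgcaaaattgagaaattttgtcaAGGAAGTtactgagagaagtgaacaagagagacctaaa
Ear2: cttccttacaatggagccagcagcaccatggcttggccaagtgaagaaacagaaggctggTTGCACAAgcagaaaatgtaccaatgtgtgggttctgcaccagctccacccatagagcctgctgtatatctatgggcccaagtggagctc
Cd300e: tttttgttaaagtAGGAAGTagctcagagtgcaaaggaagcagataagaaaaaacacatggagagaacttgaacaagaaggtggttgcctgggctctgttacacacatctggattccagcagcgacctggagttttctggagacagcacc

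Of 19 genes looked up (6 of the rule, Csf1r and the 12 leading genes outside the rule), 13 had a RefSeq entry. In the window of 250 bases before to 50 bases after the start, the ETS core was found in 7 of these 13 genes, against 9.35% of all 32851 promoters in the same table. The 7 were Fcgr4, Cd300ld, Cd300e, Adgre4, S100a8, Bcl2a1a and Bcl2a1b. Among them Bcl2a1a and Bcl2a1b have closely related windows, and nearly all S100a8 UMIs lay in 1 cell of each library. A gene counted when any of its promoters matched, whereas the share is over single promoters, and the difference was not tested. The C/EBP motif was found in 2 of 13 genes (Ear2 and Adgre4), against 10.8% of all promoters. The Nr4a1 motif AAAGGTCA was in 0 of 13, against 1.51%, which says only that these letters were not in this window. None of the 3 motifs contains another.

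The windows of Bcl2a1a (chr9:88956770-88956919, plus strand) and Bcl2a1b (chr9:89199123-89199272, plus strand), which encode copies of the anti-apoptotic protein A1, are shown for a different reason.
Bcl2a1a: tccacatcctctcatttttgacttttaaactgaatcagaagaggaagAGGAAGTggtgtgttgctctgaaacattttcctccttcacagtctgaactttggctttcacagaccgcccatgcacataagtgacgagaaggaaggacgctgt
Bcl2a1b: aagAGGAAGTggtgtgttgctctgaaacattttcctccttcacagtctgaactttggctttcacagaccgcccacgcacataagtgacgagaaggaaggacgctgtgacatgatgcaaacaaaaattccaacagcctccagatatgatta
They share a run of 74 identical bases, so the copies are counted as 2 promoters of closely related sequence, and how reads were split between their transcripts is uncertain.

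The 6 non-classical rule genes are given first, as a description only, since they chose the cells. Ear2, an eosinophil-associated ribonuclease, had UMIs in 40 of 54 mutant and 55 of 70 wildtype cells. Eno3, a glycolytic enolase, was seen in 37 mutant and 51 wildtype cells, and the receptor Treml4 in 32 mutant and 41 wildtype cells. Ace, angiotensin-converting enzyme, was seen in 32 mutant and 31 wildtype cells, and Cd300ld in 32 mutant and 37 wildtype cells. Fcgr4, an activating receptor for immunoglobulin G, was seen in 24 mutant and 42 wildtype cells. Most cells thus carried several of the genes, and all 6 were seen together in 5 mutant and 6 wildtype cells. The summed UMIs of the 6 genes had a median of 7 (1 to 21) in mutant and 6 (1 to 22) in wildtype cells. The classical sum was 0 in 33 mutant and 52 wildtype cells.

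The margin of the rule was narrow for some cells. In 6 mutant and 7 wildtype cells the non-classical sum led by 1 or 2 UMIs, and it led by 3 or more in 48 mutant and 63 wildtype cells. On the other side of the line, 10 mutant and 1 wildtype gate cells were behind by 1 or 2 UMIs. The 5 genes of the gate left more room, with a median sum of 66 UMIs (9 to 187) in mutant and 59.5 (10 to 207) in wildtype cells.

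**Figure D1:**
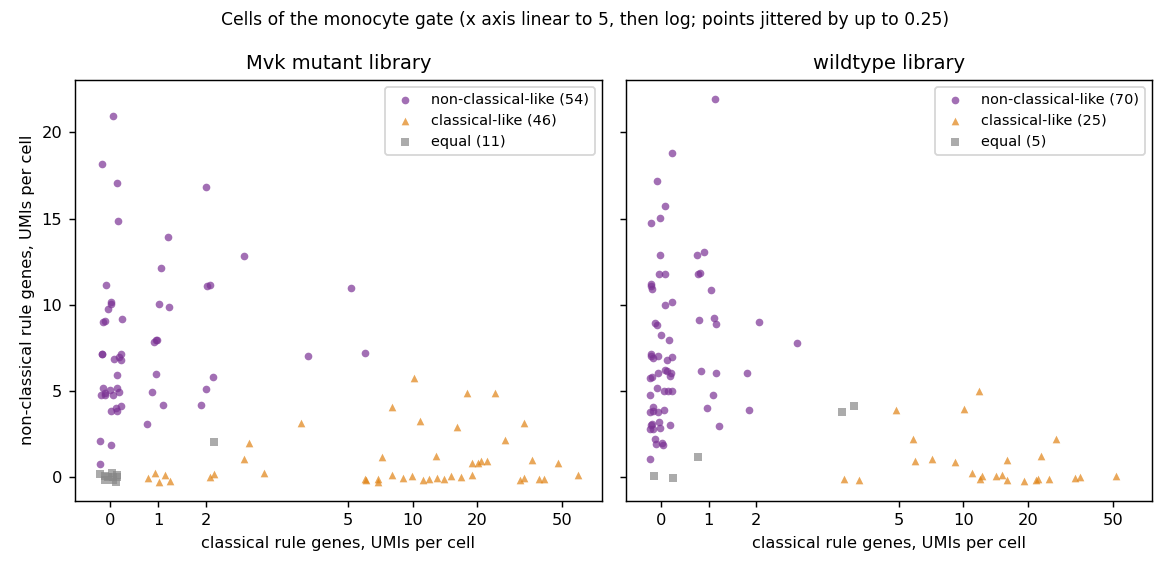
Each point is 1 cell of the monocyte gate, in the Mvk mutant (left) and wildtype (right) library, with the UMIs of the 6 classical rule genes on the x axis (linear to 5, then logarithmic) and of the 6 non-classical rule genes on the y axis. Of the non-classical-like cells, 33 of 54 mutant and 52 of 70 wildtype cells had no classical UMI, and classical-like cells lay along the bottom with up to 6 non-classical UMIs.

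The cells yielded fewer UMIs than classical-like cells. The median non-classical-like cell had 2134 UMIs and 1054.5 genes (mutant), or 1935.5 UMIs and 989 genes (wildtype). Classical-like cells had medians of 3789.5 UMIs and 1480 genes (mutant) and 4026 UMIs and 1555 genes (wildtype). Levels below are therefore CPM, the UMIs of a gene summed over all cells of a kind in 1 library and scaled to 1000000 UMIs of those cells. Non-classical-like cells summed to 127817 UMIs (mutant) and 146869 UMIs (wildtype), so that 3 UMIs equal 23.5 CPM (mutant) and 20.4 CPM (wildtype). Because each read comes from the 3′ end of a transcript, CPM is not divided by length here.

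All 6 genes that mark the cells by label are used by the rule, so the label was set beside genes outside it. Those genes come from lists chosen with earlier results of these data known. Nr4a1 stood at 939 CPM in mutant non-classical-like cells against 297 CPM in mutant classical-like cells, and at 1008 CPM in wildtype non-classical-like against 539 CPM in wildtype classical-like cells. The ratio was 3.16 (2.27 to 4.44) for mutant and 1.87 (1.37 to 2.59) for wildtype cells. Nr4a1 UMIs were found in 79.6% of mutant and 85.7% of wildtype non-classical-like cells, and in 13.1% of mutant and 21.3% of wildtype B cells, which served as background. The transcription factor Pou2f2 (Oct-2) was 4.31-fold (mutant, 2.85 to 6.70) and 3.85-fold (wildtype, 2.50 to 6.16) higher than in classical-like cells.

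Several surface molecules followed the same order, but Cd9, a tetraspanin on the same list, did so in 1 library only. Cd9 was 0.771-fold (mutant, 0.609 to 0.972) and 3.48-fold (wildtype, 2.41 to 5.15) of the classical-like level. Itgal, the alpha chain of LFA-1, stood at 555 CPM in mutant non-classical-like against 93.5 CPM in mutant classical-like cells, and at 552 CPM in wildtype non-classical-like against 115 CPM in wildtype classical-like cells. Spn (CD43) was 4.48-fold (2.36 to 9.12) higher in the mutant and 5.96-fold (2.72 to 15.5) higher in the wildtype library. Cx3cr1 was 2.17-fold (mutant, 1.21 to 3.95) and 5.42-fold (wildtype, 2.31 to 15.5) higher. Cx3cr1 UMIs were in 33.3% of mutant and 45.7% of wildtype non-classical-like cells, against 0.418% of mutant and 0.562% of wildtype B cells. Adgre4, an adhesion G protein-coupled receptor, was 5.54-fold (mutant, 3.31 to 9.71) and 5.74-fold (wildtype, 2.86 to 13.05) higher. The scavenger receptor Cd36 was 3.34-fold (mutant, 2.08 to 5.50) and 11.9-fold (wildtype, 4.42 to 44.8) higher. Some classical-like cells carried UMIs of complement C1q genes. Without them, 3 mutant and 1 wildtype Cd36 UMIs were left in classical-like cells, too few to read a ratio from. Tcf7l2 and Itgax (CD11c) were sparse, with 16 and 9 UMIs in mutant and 24 and 7 UMIs in wildtype non-classical-like cells.

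Classical genes outside the rule stood the other way. Cd14, the lipopolysaccharide co-receptor, was at 70.4 CPM in mutant non-classical-like against 374 CPM in mutant classical-like cells, and at 27.2 CPM in wildtype non-classical-like against 337 CPM in wildtype classical-like cells. Hp (haptoglobin) reached 0.495-fold (mutant, 0.318 to 0.753) and 0.299-fold (wildtype, 0.188 to 0.464) of the classical-like level. Cd177, Mgst1, Plac8 and S100a4 were lower in both libraries as well. Ifitm6 did not separate the cells, at 1.06-fold in the mutant and 0.788-fold in the wildtype library.

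**Figure D2:**
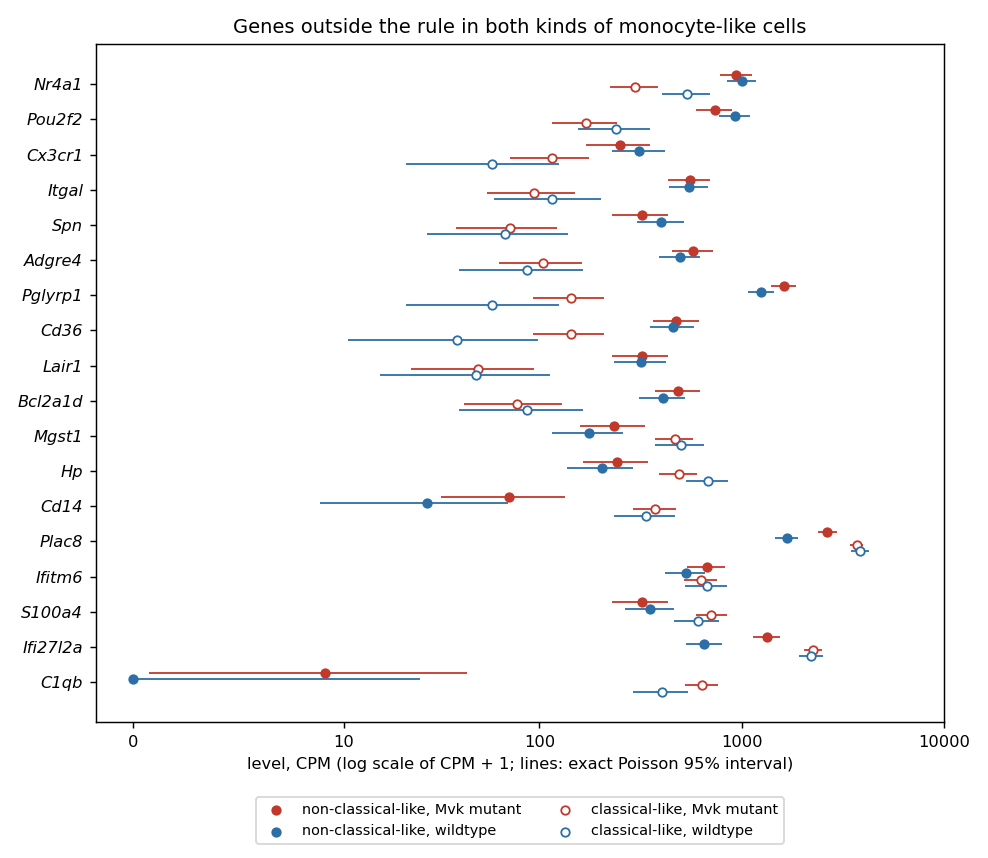
Level (CPM, on a log scale of CPM + 1) of 18 genes that the rule did not use, in non-classical-like cells (filled) and classical-like cells (open) of the Mvk mutant (red) and wildtype (blue) library, with exact Poisson 95% intervals. Genes from Nr4a1 to Bcl2a1d lay higher in non-classical-like cells of both libraries, and Cd14, Hp and C1qb lay lower.

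Of 1681 genes with at least 50 UMIs over both kinds of monocyte-like cells, rule genes left out, 85 (5.06%) were at least 2-fold higher and 78 (4.64%) at least 2-fold lower in non-classical-like cells of both libraries. These counts are descriptive, since the cells were split by genes of the same contrast. The lists below were chosen with earlier results of these data known, so their counts are no independent check of the label. Among 20 measured non-classical genes outside the rule, 13 were at least 2-fold higher and 0 lower, with median log2 ratios of 1.98 (mutant) and 2.19 (wildtype), against 0.02 (mutant) and -0.01 (wildtype) over all 1681 genes. Among 11 measured classical genes, 0 were higher and 5 lower (medians of -0.999 for mutant and -1.21 for wildtype cells).

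Cd300e, an activating receptor that pairs with an ITAM adaptor, headed the higher genes. It had 50 UMIs in mutant and 72 UMIs in wildtype non-classical-like cells, and 0 UMIs in classical-like cells of either library. Against a floor of 3 UMIs per library it was at least 23.7-fold (mutant) and at least 17.0-fold (wildtype) higher. Tgm2, a transglutaminase, had 16 UMIs in mutant and 39 UMIs in wildtype non-classical-like cells and also 0 in classical-like cells, at least 7.58-fold (mutant) and 9.20-fold (wildtype) higher. The receptor gene Lilra5 had 8 mutant and 27 wildtype UMIs, with 0 in classical-like cells, at least 3.79-fold (mutant) and 6.37-fold (wildtype) higher.

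Pglyrp1, an antibacterial peptidoglycan-binding protein, was at 1612 CPM in mutant non-classical-like against 143 CPM in mutant classical-like cells, and at 1253 CPM in wildtype non-classical-like against 57.7 CPM in wildtype classical-like cells. Survival genes of the A1 family stood high, with Bcl2a1b 6.67-fold (mutant, 3.85 to 12.3) and 10.97-fold (wildtype, 4.85 to 30.6) above classical-like cells. Without the C1q-carrying cells the Bcl2a1b ratio was 20.6 (mutant) and 14.3 (wildtype), from only 4 mutant and 4 wildtype UMIs left in classical-like cells. Stap1, an adaptor of receptor kinase signalling, was 12.8-fold (mutant, 3.94 to 65.9) and 7.92-fold (wildtype, 3.20 to 25.4) higher. Gngt2, a G protein gamma subunit, was among the most abundant of these genes, at 2652 CPM in mutant non-classical-like against 726 CPM in mutant classical-like cells, and at 2901 CPM in wildtype non-classical-like against 539 CPM in wildtype classical-like cells. The kinase Adrbk2, the phosphatase Dusp16 and Ly6i were also among the 12 leading genes. S100a8 ranked with them by rule, but its 23 mutant UMIs were in 1 cell and 37 of its 38 wildtype UMIs in 1 cell.

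Interferon-stimulated genes leaned towards classical-like cells. Of 13 measured, 0 were at least 2-fold higher and 5 at least 2-fold lower in non-classical-like cells of both libraries, with medians of -0.99 (mutant) and -1.01 (wildtype). Of all 1681 genes, 85 (5.06%) were higher and 78 (4.64%) lower. The genes C1qa, C1qb and C1qc, which encode complement C1q, headed the lower genes together with Retnla. In non-classical-like cells C1q genes had 1 UMI (mutant, of C1qb) and 0 UMIs (wildtype). Their UMIs in classical-like cells lay in 6 of 46 mutant and 2 of 25 wildtype cells. The mutant ones also held 525 of the 528 mutant Retnla UMIs, whereas all 42 wildtype Retnla UMIs lay in classical-like cells without C1q UMIs. Prg4, Alox15 and Ltc4s, also among the 12 leading lower genes, had 0 UMIs in classical-like cells without C1q UMIs, except 1 wildtype Ltc4s UMI. Pf4, a platelet marker, Ecm1, Thbs1 and Cfp were among the 12 as well. Without the C1q-carrying cells the counts were 73 higher and 56 lower genes, and without any barcode that had a Pf4, Ppbp or Gng11 UMI they were 56 higher and 20 lower. Wfdc17 was at 250 CPM in mutant non-classical-like against 2371 CPM in mutant classical-like cells, and at 129 CPM in wildtype non-classical-like against 1790 CPM in wildtype classical-like cells. Without the C1q-carrying cells it stood at 0.140-fold (mutant) and 0.0775-fold (wildtype) of the classical-like level.

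Non-classical-like cells were as frequent among all kept cells of the mutant library as of the wildtype library within counting error. Their share was 1.29% (0.970 to 1.68) in the mutant and 1.34% (1.05 to 1.69) in the wildtype library, a ratio of 0.962 (0.662 to 1.39). Within the monocyte gate the share was 48.6% (39.0 to 58.3) in the mutant and 70.0% (60.0 to 78.8) in the wildtype library, a ratio of 0.695, and the intervals of the 2 shares did not overlap. The rest of the gate differed, as classical-like cells were 1.10% of mutant and 0.478% of wildtype kept cells, a ratio of 2.29 (1.38 to 3.90).

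Platelet transcripts were found more often in classical-like than in non-classical-like cells. UMIs of Pf4, Ppbp or Gng11 were present in 11 of 54 mutant and 7 of 70 wildtype non-classical-like cells, and in 40 of 46 mutant and 18 of 25 wildtype classical-like cells. When every barcode with such a UMI was removed, non-classical-like cells were 84.3% (71.4 to 92.98) of 51 mutant and 86.3% (76.2 to 93.2) of 73 wildtype gate cells, a ratio of 0.977 with overlapping intervals. This removal took out the 40 mutant and 18 wildtype classical-like cells named above, so the remaining shares describe a gate with few classical-like cells left. Classical-like cells also held more UMIs per cell. Platelet markers stood at 554 CPM (mutant) and 191 CPM (wildtype) in free RNA. The part of platelet RNA in the difference was not tested further.

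Between the genotypes, non-classical-like cells differed at least 2-fold in few genes. Of 865 genes with at least 50 UMIs over both libraries, 9 (1.04%) were at least 2-fold higher and 9 (1.04%) at least 2-fold lower in the mutant library. The median log2 ratio over the 865 genes was -0.04. The intervals of 47 genes lay above 1 and of 61 below 1, with no adjustment for the number of genes. With each cell thinned to 800 UMIs, 36 genes were higher and 37 lower by this measure. Mvk itself (chr5:114444269-114460591 on GRCm38) had 0 UMIs in the cells of both libraries. That is under the floor of 3 UMIs, which equals 23.5 CPM in mutant and 20.4 CPM in wildtype cells. Its level therefore does not check the labels here.

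S100a11, a calcium-binding protein (chr3:93520488-93526287), had the highest ratio among named genes with UMIs in at least 20 mutant cells. It had 95 UMIs in 30 of 54 mutant cells and 40 UMIs in 21 of 70 wildtype cells, or 743 CPM (mutant) against 272 CPM (wildtype). The ratio was 2.73 (1.87 to 4.05). Of the 95 mutant UMIs, 51 lay in 5 cells with 7 to 12 each, while 24 mutant and 49 wildtype cells had none. In 3 of these 5 cells the rule's lead was at most 2 UMIs, and 3 of the 5 held at least 20 UMIs of class II genes. Without all cells so rich in class II UMIs, S100a11 was at 589 CPM in mutant and 290.4 CPM in wildtype cells, a ratio of 2.03 (1.33 to 3.13). The ratio ranged from 1.89, when any T, B or Siglech UMI was refused, to 3.15. In classical-like cells it was 638 CPM (mutant) and 635 CPM (wildtype), a ratio of 1.005 (0.736 to 1.38), and the difference between the 2 ratios was not tested. B cells with a S100a11 UMI made up 39.3% of mutant and 37.1% of wildtype B cells, which lay between the shares of mutant (55.6%) and wildtype (30.0%) non-classical-like cells. With every cell thinned to 800 UMIs the shares of non-classical-like cells were 31.5% (mutant) and 14.3% (wildtype).

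Cebpb, a transcription factor of myeloid cells, stood at 970 CPM in mutant and 538 CPM in wildtype non-classical-like cells, a ratio of 1.80 (1.35 to 2.42). It was seen in 77.8% of mutant and 58.6% of wildtype cells, and in 48.1% (mutant) and 34.3% (wildtype) after thinning, against 6.17% of mutant and 2.81% of wildtype B cells. It was 2.14-fold (1.39 to 3.40) higher in mutant than in wildtype classical-like cells. Rnh1, the inhibitor of secreted ribonucleases (chr7:141160326-141172857), had 34 UMIs in 24 mutant cells and 18 UMIs in 13 wildtype cells, a ratio of 2.17 (1.19 to 4.08). Rassf5, a Rap1 effector in integrin adhesion, had 37 UMIs in 28 mutant cells and 21 in 18 wildtype cells (2.02-fold, 1.15 to 3.64). These differences came from many cells, each with few UMIs.

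Atox1, Prdx1 and Plac8 were higher at greater abundance. Atox1, a copper chaperone, was at 1479 CPM in mutant and 872 CPM in wildtype cells (1.70-fold, 1.35 to 2.14). Prdx1, a peroxiredoxin, was at 1604 CPM in mutant and 878 CPM in wildtype cells, but 50 of its 205 mutant UMIs were in 1 cell, and the ratio of 1.83 (1.46 to 2.29) became 1.48 without the highest cell of each library. Plac8, a small cysteine-rich protein listed here with the classical genes, was at 2652 CPM in mutant and 1668 CPM in wildtype cells (1.59-fold, 1.345 to 1.88). In classical-like cells the Plac8 levels were 3686 CPM (mutant) and 3830 CPM (wildtype), 0.962-fold (0.849 to 1.09).

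Most UMIs behind some of the highest ratios lay in 1 or 2 cells. Lyz1, a lysozyme gene whose reads can be confused with Lyz2, had 55 mutant and 9 wildtype UMIs (7.02-fold, 3.44 to 16.2), and 53 of the 55 lay in 2 mutant cells. Without the highest cell of each library the Lyz1 ratio was 3.47 (1.42 to 9.66), but the second high mutant cell was still included. Without the 2 highest cells of each library, 2 mutant and 6 wildtype UMIs were left. Lyz1 was also higher in the mutant library elsewhere, at 1397 CPM in mutant and 144 CPM in wildtype classical-like cells (9.68-fold, 5.76 to 17.6), and at 29.7 CPM in mutant and 1.70 CPM in wildtype kept cells other than non-classical-like ones. In free RNA it had 7 mutant UMIs and 1 wildtype UMI. Rgs1, a regulator of G protein signalling, had 37 mutant UMIs, 26 of them in 2 cells, and 13 wildtype UMIs (3.27-fold, 1.70 to 6.71). Its ratio in classical-like cells was 7.43 (2.36 to 37.6), from 39 mutant and 3 wildtype UMIs. The Rgs1 ratio in non-classical-like cells went below 1, to 0.949, when a lead of at least 3 UMIs was asked of each cell, and to 0.794 without the cells rich in class II UMIs.

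Class II antigen-presenting genes were likewise carried by few cells. H2-Ab1 had 281 mutant and 214 wildtype UMIs (1.51-fold, 1.26 to 1.81), and H2-Eb1 had 165 mutant and 95 wildtype UMIs (1.996-fold, 1.54 to 2.597). Of the UMIs of H2-Aa, H2-Ab1 and H2-Eb1 together, 615 of 678 lay in 5 mutant cells and 425 of 500 in 4 wildtype cells, each with at least 20. Cd209a, a marker on the dendritic cell list, had 4 UMIs in these mutant cells and 0 in these wildtype cells. The other cells stood at 589 CPM in both libraries (63 mutant and 75 wildtype UMIs), and 22 mutant and 29 wildtype cells had none. The ratios depended on the setting, from 0.464 with a lead of at least 3 UMIs to 1.79 after thinning for H2-Ab1, and from 0.616 with no T, B or Siglech UMI to 3.98 after thinning for H2-Eb1.

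Ifi27l2a, an interferon-stimulated gene, was at 1338 CPM in mutant and 654 CPM in wildtype cells (2.05-fold, 1.58 to 2.66), with 171 UMIs in 38 mutant cells and 96 UMIs in 33 wildtype cells. Ifi27l2a UMIs were in 70.4% of mutant and 47.1% of wildtype non-classical-like cells, against 54.5% of mutant and 43.6% of wildtype B cells. In classical-like cells its ratio was 1.02 (0.866 to 1.21). It stood at 698 CPM (mutant) and 497 CPM (wildtype) in free RNA, and at 693 CPM in mutant and 463 CPM in wildtype kept cells other than non-classical-like ones. With cells thinned to 800 UMIs the non-classical-like ratio was 1.36 (0.869 to 2.12). Of 38 listed interferon genes found in the files, 3 reached the minimum of 50 UMIs, and Ifi27l2a was the 1 of them at least 2-fold apart (median log2 ratio -0.06). The list summed to 652 UMIs in mutant and 644 UMIs in wildtype cells, of which Ifi27l2a gave 171 (mutant) and 96 (wildtype). Scaled, the sum with Ifi27l2a was 5101 CPM (mutant) and 4385 CPM (wildtype), 1.16-fold (1.04 to 1.30).

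**Figure D3:**
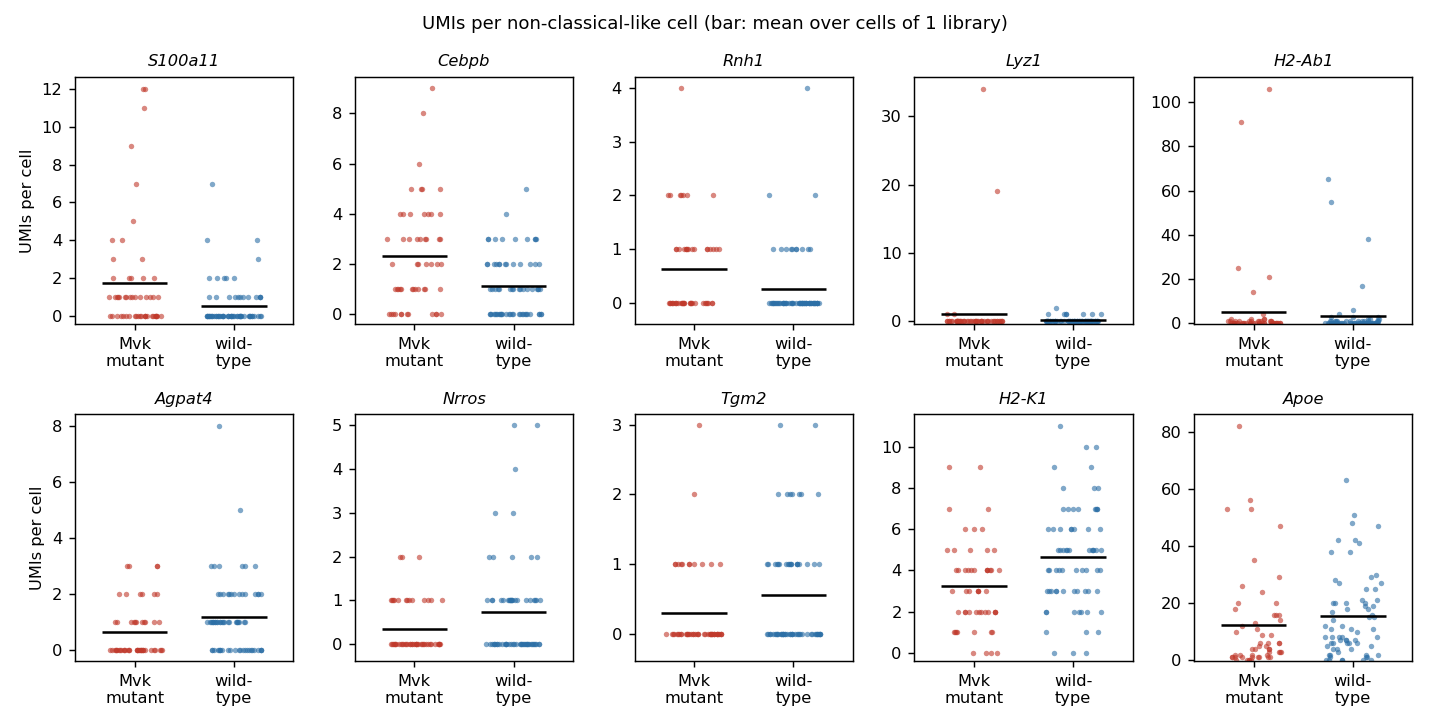
UMIs per non-classical-like cell (y axis) for 10 genes, in 54 Mvk mutant (left, red) and 70 wildtype (right, blue) cells, with a bar at the mean over the cells of 1 library. The Cebpb points of the mutant are spread upward over many cells, S100a11 has 5 mutant cells at 7 to 12 UMIs above the rest, Lyz1 and H2-Ab1 are carried by few cells, and Agpat4, Nrros, Tgm2 and H2-K1 lie higher in wildtype cells.

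Cybb and Nrros were among the lower genes. Cybb, the catalytic subunit of the phagocyte NADPH oxidase, was at 775 CPM in mutant and 1178 CPM in wildtype cells (0.658-fold, 0.508 to 0.847). Nrros (chr16:32142785-32165594), a membrane protein that limits this oxidase and handles latent TGF-beta, had 19 UMIs in 16 mutant cells and 51 UMIs in 31 wildtype cells (0.428-fold, 0.239 to 0.738). In classical-like cells the Nrros ratio was 1.58 (0.891 to 2.94). Both genes had UMIs in B cells, Nrros in 20.2% of mutant and 18.6% of wildtype ones.

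Agpat4, an acyltransferase of phospholipid synthesis (chr17:12118704-12219645), had 35 UMIs in 21 of 54 mutant cells and 83 UMIs in 46 of 70 wildtype cells. Its levels were 274 CPM (mutant) and 565 CPM (wildtype), a ratio of 0.485 (0.317 to 0.727). Tgm2, with 0 UMIs in classical-like cells and in free RNA, had 16 UMIs in 13 mutant cells and 39 UMIs in 28 wildtype cells (0.471-fold, 0.246 to 0.863). Cd82, a tetraspanin, had 20 mutant and 50 wildtype UMIs (0.460-fold, 0.259 to 0.786), and the chemokine gene Ccl9 had 17 mutant and 48 wildtype UMIs (0.407-fold, 0.219 to 0.721). Tram1, part of the endoplasmic reticulum translocon, had 18 mutant and 42 wildtype UMIs (0.492-fold, 0.267 to 0.874). These 5 genes stayed below 1 under all 15 alternatives, at up to 0.798 (Tgm2, 0.287 to 2.08) and 0.682 (Ccl9, 0.283 to 1.54) with cells thinned to 800 UMIs. Agpat4 reached 0.556, Cd82 0.514 and Tram1 0.564 under others, so each passed 0.5 under some setting.

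Apoe, H2-K1 and H2-D1 were lower at high abundance, whereas the antigen presentation list as a whole was not (median log2 ratio -0.05 over 11 measured genes, with 3 intervals above 1 and 3 below). Apoe, the lipid-carrying apolipoprotein, was at 5226 CPM in mutant and 7319 CPM in wildtype non-classical-like cells (0.714-fold, 0.647 to 0.787), and at 2844 CPM in mutant and 4552 CPM in wildtype classical-like cells (0.625-fold, 0.550 to 0.709). Without the C1q-carrying cells, classical-like Apoe was at 2581 CPM (mutant) and 2476 CPM (wildtype), so the lower mutant level was not seen there. H2-K1, a class I heavy chain with close relatives in the genome, had 175 UMIs in 50 mutant cells and 327 UMIs in 67 wildtype cells (0.615-fold, 0.509 to 0.741), whereas its ratio in classical-like cells was 1.07 (0.819 to 1.395). H2-D1 was 0.827-fold (0.757 to 0.904). B2m, the light chain they share, was at 8989 CPM in mutant and 9314 CPM in wildtype cells (0.965-fold, 0.892 to 1.04).

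Gzma, Ccl5 and AW112010, which cytotoxic lymphocytes express at high levels, were lower too. Gzma, granzyme A, a marker on the natural killer cell list, had 6 mutant and 66 wildtype UMIs (0.104-fold, 0.0370 to 0.240), of which 33 were in 1 wildtype cell. Ccl5 had 47 mutant and 124 wildtype UMIs (0.436-fold, 0.305 to 0.614), 19 in 1 mutant cell and 51 in 1 wildtype cell, and its ratio was 0.762 without cells rich in markers of another cell type. AW112010 had 15 mutant and 42 wildtype UMIs (0.410-fold, 0.211 to 0.755). In near-empty barcodes of at most 20 UMIs, which hold free RNA, Gzma stood at 508 CPM (mutant) and 2445 CPM (wildtype), Ccl5 at 1826 CPM (mutant) and 5767 CPM (wildtype), and AW112010 at 609 CPM (mutant) and 1654 CPM (wildtype). After subtraction of this free RNA the Ccl5 ratio became 2.67 and that of AW112010 became 1.01. The subtracted share was estimated from T, B and natural killer cell markers in the same cells, Gzma among them. Of 105 wildtype natural killer marker UMIs, 45 lay in 1 cell, and subtraction without that cell was not run.

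**Figure D4:**
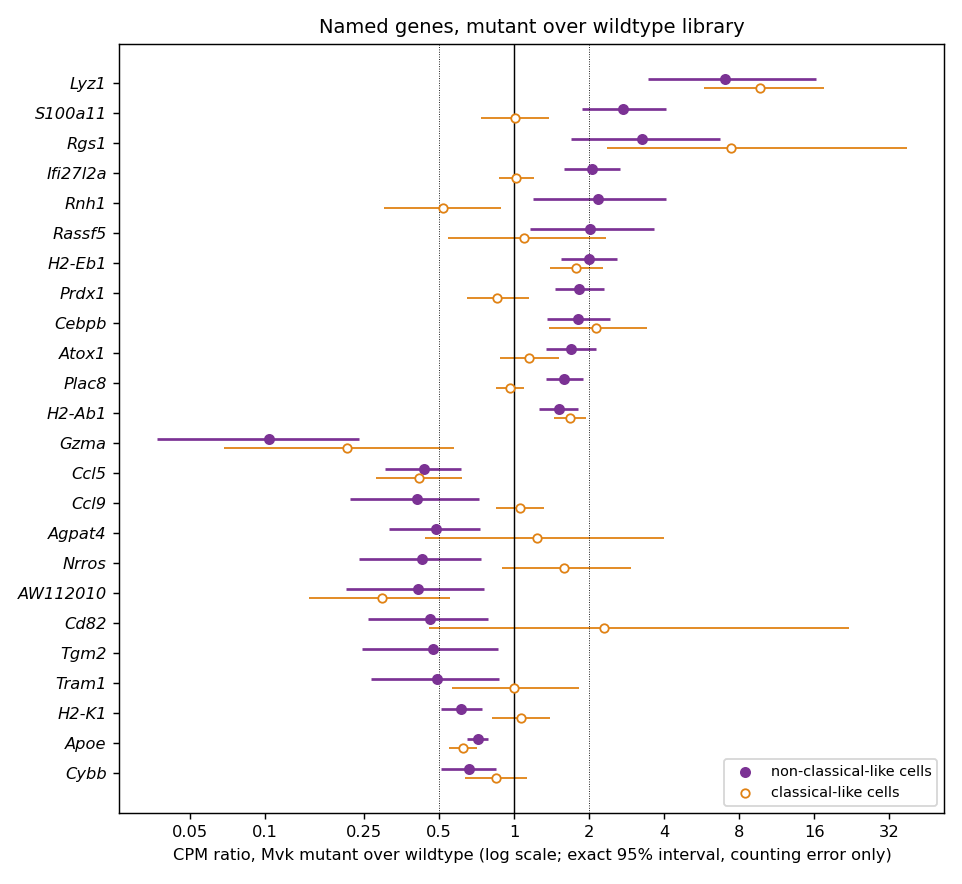
CPM ratio of the Mvk mutant over the wildtype library for the 12 higher and 12 lower named genes, in non-classical-like (filled) and classical-like (open) cells, on a log axis with exact 95% intervals of counting error and dotted lines at 0.5 and 2. S100a11, Prdx1, Plac8 and Ifi27l2a lie above 1 in non-classical-like cells and near 1 in classical-like cells, whereas Cebpb and Apoe lie on the same side of 1 in both. The classical-like Apoe ratio includes the C1q-carrying cells, without which its levels were 2581 CPM (mutant) and 2476 CPM (wildtype).

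Haemoglobin genes had the largest ratios of the 865 genes. The 4 genes Hba-a1, Hba-a2, Hbb-bs and Hbb-bt had 1692 UMIs in mutant and 41 UMIs in wildtype non-classical-like cells. They were present in all 54 mutant and in 29 of 70 wildtype cells, and 1401 of the 1692 lay in 2 cells. Red cell markers made up 50606 CPM of the free RNA in the mutant and 3589 CPM in the wildtype library. Markers of natural killer cells summed to 10 UMIs in 9 mutant cells and 105 UMIs in 38 wildtype cells, 45 of them in 1 cell, and neutrophil markers to 42 mutant and 94 wildtype UMIs, of which 37 lay in 1 mutant and 85 in 1 wildtype cell. Basophil markers were at 0 UMIs in the mutant and 1 UMI in the wildtype cells. Without the 3 mutant and 2 wildtype cells that held at least 20 UMIs of 1 such list, 6 genes were at least 2-fold higher and 6 lower.

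The identity genes themselves were nearly level between the genotypes. Of 24 non-classical genes outside the rule, 18 were measured, and none was at least 2-fold apart (9 of all 865 were higher and 9 lower), with a median log2 ratio of -0.04, the same as over all 865 genes. Nr4a1 was at 939 CPM in mutant and 1008 CPM in wildtype cells (0.932-fold, 0.726 to 1.19), Pglyrp1 at 1612 CPM in mutant and 1253 CPM in wildtype cells (1.29-fold, 1.05 to 1.58), and Stap1 at 211 CPM in mutant and 381 CPM in wildtype cells (0.554-fold, 0.336 to 0.892). Clec4a1 (0.659-fold, 0.450 to 0.954) and Cd9 (0.768-fold, 0.601 to 0.979) were the others with an interval off 1. The median of 14 measured transcription factors of monocyte fate was -0.08, with Cebpb as the 1 factor whose interval left out 1. Spi1, the ETS factor PU.1, was at 1244 CPM in mutant and 1130 CPM in wildtype cells (1.10-fold, 0.880 to 1.38).

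Classical genes outside the rule stood higher in the mutant non-classical-like cells. Of 18 listed, 10 were measured, 9 had a ratio above 1, and the median log2 ratio was 0.37. Of all 865 genes, 391 had a ratio above 1. Their sum was 7761 CPM in mutant and 5461 CPM in wildtype cells (1.42-fold, 1.29 to 1.56), and it was 1927 CPM (mutant) and 1459 CPM (wildtype) in free RNA. Besides Lyz1 and Plac8, the intervals of Wfdc17 (1.94-fold, 1.06 to 3.61) and S100a6 (1.33-fold, 1.02 to 1.73) lay above 1, 4 of 10 genes against 47 of all 865. Of the 55 mutant Lyz1 UMIs, 53 lay in 2 cells. The classical rule gene Chil3, a chitinase-like protein, had 30 UMIs in 12 mutant cells and 2 UMIs in 2 wildtype cells, whereas Ly6c2 had 4 mutant and 11 wildtype UMIs and Ccr2 had 5 mutant and 10 wildtype UMIs. Since the rule limits these genes, no ratio is read from them.

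Fc receptors, their ITAM adaptors and the inhibitory receptors had a median log2 ratio of -0.32 over 13 measured genes, with 4 of 13 above 1, against 391 of all 865. None was at least 2-fold apart, which few of all measured genes were. The shared gamma chain Fcer1g was at 5085 CPM in mutant and 6489 CPM in wildtype cells (0.784-fold, 0.708 to 0.867), while the adaptor Tyrobp was at 4827 CPM in mutant and 4875 CPM in wildtype cells (0.990-fold, 0.888 to 1.10). The sum of the list was 14622 CPM in mutant against 16811 CPM in wildtype cells (0.870-fold, 0.819 to 0.924). Adhesion, chemokine and egress receptors had a median of 0.02 over 6 measured genes, with Adgre5 (CD97) at 305 CPM in mutant and 504 CPM in wildtype cells (0.606-fold, 0.400 to 0.904). Complement and integrin genes had a median of 0.01 over 5 genes, and Itgal was at 555 CPM in mutant and 552 CPM in wildtype cells (1.01-fold, 0.722 to 1.403).

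Genes of the mevalonate pathway were scarce in these cells. The 31 sterol synthesis and control genes summed to 96 UMIs in mutant and 133 UMIs in wildtype cells (0.829-fold, 0.631 to 1.09), and none reached 50 UMIs. Fdps, farnesyl diphosphate synthase, had 14 UMIs in mutant and 14 UMIs in wildtype cells. At this depth no difference in the sum was detectable. Prenylation enzymes and the GTPases they modify had a median log2 ratio of 0.02 over 11 measured genes, with Rhoa at 1385 CPM in mutant and 1157 CPM in wildtype cells (1.20-fold, 0.964 to 1.49) and Rac1 at 524 CPM in mutant and 470 CPM in wildtype cells (1.12-fold, 0.785 to 1.58).

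NF-kB subunits, feedback genes and cytokines had a median of 0.25 over 7 measured genes, with Rel at 336 CPM in mutant and 177 CPM in wildtype cells (1.90-fold, 1.14 to 3.22), Ccl6 1.34-fold (1.05 to 1.72) and Ccl9 lower as above. Il1b, the cytokine released by inflammasomes, had 20 mutant and 35 wildtype UMIs (0.657-fold, 0.359 to 1.17). Pycard, the inflammasome adaptor, had 32 mutant and 44 wildtype UMIs (0.836-fold, 0.513 to 1.35), and Mefv, which encodes pyrin, had 1 mutant and 2 wildtype UMIs. Il1b and Pycard were the 2 measured genes of the inflammasome list (median -0.42). Actin and migration genes had a median of 0.08 over 20 genes, with Actb at 9568 CPM in mutant and 7136 CPM in wildtype cells (1.34-fold, 1.23 to 1.46). S100, galectin and annexin genes had a median of -0.05 over 8 genes, with Anxa2 1.75-fold (1.21 to 2.53). Lysosome and efferocytosis genes had a median of -0.03 over 18 genes, with Ctsh, a cathepsin, 1.88-fold (1.25 to 2.84). Medians of the remaining lists lay between -0.08 and 0.04 (antigen presentation, Bcl2 family, chaperones, AP-1 and immediate early genes).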

How the data were processed

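The files hold raw UMI counts for 27998 genes and 737280 barcodes per library, as deposited by the authors; per the submitters' processing notes they were made with Cell Ranger 2.1.1 on mm10, from 10x Chromium 3′ v2 libraries per the labels. How reads shared by near-identical genes were assigned is not given in the sources used here. Barcodes with at least 800 UMIs, at least 200 genes and at most 10% mitochondrial UMIs were kept, and the marker rule was applied to them. The members and lists were chosen with earlier results of these data known. UMIs were summed per library and kind of cell, and CPM was computed from the sums (python 3.11.15, numpy 2.4.6, pandas 2.3.3). Shares have exact Clopper-Pearson intervals, levels exact Poisson intervals and ratios exact conditional intervals (scipy 1.17.1), all at 95%. With 1 library per genotype no test was run. A list median uses the log2 ratio after adding 0.5 UMI.

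Named genes were the 12 higher and the 12 lower ones ranked by how far the nearer bound of the interval lay from 1, those at least 2-fold apart first, without ribosomal, mitochondrial, haemoglobin and provisionally named genes. Those between kinds of cells were the 12 higher and 12 lower by the same bound in both libraries. Other genes are list members. Free RNA was read from 200587 mutant and 200020 wildtype barcodes with at most 20 UMIs (395464 and 460573 UMIs), and it made up an estimated 7.39% of mutant and 13.2% of wildtype non-classical-like UMIs. That share was estimated from the T, B and natural killer cell markers outside the rule that the cells held, so a cell mixed with a lymphocyte raises it. B cell shares come from 956 mutant and 889 wildtype cells with medians of 1590 and 1594 UMIs. Shares of cells with a UMI are unthinned unless stated, and thinning took each cell to 800 UMIs. Doublets were scored with Scrublet (scanpy 1.11.5) and not removed. Its own threshold called 0.0716% of mutant cells and did not work there. Scores above 0.2 marked 1.50% of mutant and 2.74% of wildtype cells, 2 and 1 of them non-classical-like. Genome positions are from an annotation of GRCm38, the same assembly as mm10.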

Additional observations from a re-analysis of the deposited data

Results flagged for a closer look

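Rnh1, the ribonuclease inhibitor, went in opposite directions between the genotypes in the 2 kinds of monocyte-like cells. In non-classical-like cells it was 266 CPM in the mutant and 123 CPM in the wildtype library, a ratio of 2.17 (1.19 to 4.08). In classical-like cells it was 160 CPM (mutant) and 308 CPM (wildtype), a ratio of 0.518 (0.302 to 0.884). The intervals of the 2 ratios do not overlap, and the difference between them was not tested, since each rests on 1 library per genotype. The non-classical-like ratio ranged from 2.105 to 3.24 under the 15 alternatives.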

How the results depend on the processing

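The ratio of shares of kept cells stayed within its interval under all alternatives run (0.690 to 0.985). For gate cells it was 0.695, and 0.657 with no T, B or Siglech UMI and 0.977 without platelet UMIs, where a share left its interval. The platelet setting also removed most classical-like cells of both libraries. Of 24 named genes, 19 stayed on their side of 1 under all 15 alternatives, with the exceptions Rgs1, H2-Eb1, H2-Ab1, Ccl5 and AW112010. The interval stayed off 1 throughout for 13. Besides these exceptions, Ifi27l2a, Cebpb, Ccl9, Nrros, Tgm2 and Tram1 lost it under some setting. Lyz1 was among the 13, but 53 of its 55 mutant UMIs lay in 2 cells and the alternative without the highest cell removed only 1. Ratios crossed 1 for Rgs1 at 0.772 when any T, B or Siglech UMI was refused, at 0.949 with a lead of 3 UMIs and at 0.794 without class II-rich cells, and for Ccl5 at 2.67 and AW112010 at 1.01 after free RNA subtraction; the cause was not tested. In all, 334 of 360 gene values stayed within the counting interval of the reported ratio, and 186 of 191 list medians within 0.25 of the reported log2 ratio. These limits are wide, so that Tgm2 at 0.798 counted as within its interval of 0.246 to 0.863.

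Counts of genes at least 2-fold apart depended on the settings. Between genotypes they were 36 higher and 37 lower with cells thinned to 800 UMIs, 35 and 46 with a minimum of 25 UMIs, 5 and 2 with a minimum of 100, and 47 and 54 at 1.5-fold, and 14 were higher after free RNA subtraction. Between non-classical-like and classical-like cells they were 49 and 39 without any T, B or Siglech UMI, 56 and 20 without platelet UMIs, 158 and 146 at 25 UMIs, 38 and 46 at 100 UMIs, and 188 and 157 at 1.5-fold. Removing the highest cell of a gene, cells with other markers, class II-rich cells, equal sums and C1q-positive cells were alternatives chosen after seeing the data. No paired analysis was possible because each genotype was 1 library. Depth limits genes under 50 UMIs, including the sterol genes.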

Other observations

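Single members of other gene lists differed between non-classical-like and classical-like cells, while few members of each list were at least 2-fold apart in both libraries. Of all 1681 measured genes, 85 (5.06%) were higher and 78 (4.64%) lower by this measure, to be set beside the counts below. Of 17 measured Fc receptor, adaptor and inhibitory receptor genes, 3 were higher and 1 lower (median log2 ratios of 0.47 for mutant and 0.56 for wildtype cells): beside the high Fcgr4 of the rule, Fcgr3, another activating receptor, was at 211 CPM in mutant non-classical-like against 468 CPM in mutant classical-like cells (0.452-fold, 0.281 to 0.704), and at 157 CPM in wildtype non-classical-like against 433 CPM in wildtype classical-like cells (0.362-fold, 0.209 to 0.610). The inhibitory Fcgr2b was 0.232-fold (mutant, 0.0950 to 0.494) and 0.619-fold (wildtype, 0.328 to 1.16). The gamma chain Fcer1g was 1.57-fold (mutant, 1.402 to 1.76) and 1.90-fold (wildtype, 1.68 to 2.15) higher. S1pr5, a sphingosine phosphate receptor used for egress, had 21 UMIs in non-classical-like cells of each library, against 3 (mutant) and 1 (wildtype) in classical-like cells, a ratio of 9.95 (mutant, 2.97 to 52.1) and 14.9 (wildtype, 2.39 to 614).

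Itgb2, the beta chain that pairs with Itgal, was 1.998-fold (mutant, 1.48 to 2.70) and 2.27-fold (wildtype, 1.602 to 3.28) higher than in classical-like cells, and the Notch target Hes1 6.40-fold (mutant, 3.38 to 13.1) and 2.43-fold (wildtype, 1.37 to 4.55). Of 8 measured NF-kB and cytokine genes, 1 was higher and 3 lower. The higher one was Rel, at 3.82-fold (mutant, 2.11 to 7.27) and 2.30-fold (wildtype, 1.01 to 5.88). Of 4 measured genes of the inflammasome list, 1 was higher and 0 lower. The higher one was Il1b, at 7.11-fold (mutant, 2.38 to 28.6) and 3.10-fold (wildtype, 1.41 to 7.72). Of 16 measured antigen presentation genes, 1 was higher and 2 lower (medians of -0.24 for mutant and -0.21 for wildtype cells), with B2m 1.66-fold (mutant, 1.53 to 1.81) and 1.93-fold (wildtype, 1.74 to 2.14) and H2-D1 1.58-fold (mutant, 1.44 to 1.75) and 1.81-fold (wildtype, 1.63 to 2.02). The classical-like cells are those of the same library throughout.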
